A study of Mus musculus with 8 samples.

Results

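The insulin-like growth factor (IGF) system was followed in pancreatic islets through 10 genes, the ligands Igf1 and Igf2, the receptors Igf1r and Igf2r, and the binding proteins Igfbp2, Igfbp3, Igfbp4, Igfbp5, Igfbp6 and Igfbp7. The members were taken as every probe set annotated to exactly 1 of these genes, which gave 10 of the 18194 genes with a probe set of their own and 28 of the 45101 probe sets on the array. Another 1 probe set, annotated to Igf2r together with the antisense transcript Airn, was left out by that rule. The samples were islet RNA of male C57BL/6J mice, 4 on normal rodent chow (NC replicates 1, 2, 4 and 5) and 4 on a high fat diet with 45% of its energy from fat (HF replicates 21, 22, 23 and 24), with 1 array per sample. The diets began at weaning at 4 weeks of age and lasted 12 weeks by the sample labels and 14 weeks by the study's methods. Mice of both diets were of the Jackson substrain, which carries the Nnt deletion, and each sample pooled the islets of 2 mice, so that n counts pools and p-values measure the spread between these pools. Islets were isolated by collagenase digestion and a density gradient. No value of these samples was used to choose the members.

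In the IGF system the ligands signal through Igf1r, a receptor tyrosine kinase related to the insulin receptor, whereas Igf2r carries Igf2 to lysosomes for degradation. Binding proteins hold the ligands outside the cell, prolong their life and keep them from or deliver them to the receptor, and proteases release the ligands by cutting the binding proteins. In the islet, the growth factors are best known for effects on beta cell growth and survival, and much of the Igf1 and of several binding proteins in tissues comes from connective tissue and vessel wall cells.

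The measurements are intensities summarised by the authors with GCRMA, a method that adjusts for background and normalizes across arrays, and were compared on the log2 scale. The median intensity of a sample lay between 13.03 and 13.81. Probe sets were retained when their third-highest intensity over the 8 samples was among the highest 56.8% of the array, the number that the study tested, with 8.82 the lowest kept, and a change was called at an adjusted p under 0.05 over all retained probe sets with a fold change of at least 1.5. The samples correlated more closely within a diet (mean correlation of a sample 0.992 to 0.994) than between diets (0.987 to 0.989). The defining markers of islets were present, with Iapp, islet amyloid polypeptide of beta cells, at a mean of 79381 ± 1023 (NC) and 84905 ± 1877 (HF; SD, n = 4 each). Of acinar cells, which surround islets in the pancreas, Prss2, a trypsinogen, was bright in both diets as well, at 42342 ± 5781 in NC and 42978 ± 3194 in HF. Precision is limited by the small number of arrays.

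The 3 genes with the largest falls on their brightest retained probe set were Igfbp4, Igfbp5 and Igf1, and the RefSeq sequences around their start sites (build GRCm38.p6, 250 bases before and 50 bases after the start) are shown for them, since these genes moved the same way. All 10 genes matched, with 14 start regions. Capitals mark 4 short motifs searched on both strands. They were the TATA box (TATAAA), the CCAAT box (CCAAT), the GC box (GGGCGG) and a loose AP-1 pattern (TGANTCA). In that pattern N is any base, so that a match need not be an AP-1 site.
Igfbp4, chr11:99040994-99041293, plus strand: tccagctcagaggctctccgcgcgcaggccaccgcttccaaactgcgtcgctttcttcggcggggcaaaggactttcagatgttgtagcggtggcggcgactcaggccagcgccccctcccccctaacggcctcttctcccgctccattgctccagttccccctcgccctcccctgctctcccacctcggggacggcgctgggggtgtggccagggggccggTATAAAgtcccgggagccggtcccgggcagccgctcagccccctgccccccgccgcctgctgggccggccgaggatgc
Igfbp5, chr1:72874816-72875115, minus strand: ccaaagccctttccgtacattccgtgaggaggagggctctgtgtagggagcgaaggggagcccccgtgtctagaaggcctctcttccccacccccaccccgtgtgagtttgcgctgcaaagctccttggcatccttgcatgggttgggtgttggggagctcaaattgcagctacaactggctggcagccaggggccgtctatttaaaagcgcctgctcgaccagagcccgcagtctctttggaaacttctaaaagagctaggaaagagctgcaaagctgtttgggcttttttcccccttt
Igf1, chr10:87860861-87861160, plus strand: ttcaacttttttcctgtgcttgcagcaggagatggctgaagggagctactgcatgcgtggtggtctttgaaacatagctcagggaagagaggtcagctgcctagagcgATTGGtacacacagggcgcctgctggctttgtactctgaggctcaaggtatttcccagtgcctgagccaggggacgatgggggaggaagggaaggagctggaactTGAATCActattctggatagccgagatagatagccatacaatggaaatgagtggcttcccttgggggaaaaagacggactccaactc
The Igfbp4 region held a TATA box 28 bases before the start, and no other of the motifs. The Igf1 region held a CCAAT box on the opposite strand 142 bases before the start. It also held a match to the loose AP-1 pattern, TGAATCA, 37 bases before the start, with no overlap. The Igfbp5 region held none of these letters. The TATA box was present in 13.6% of 32851 start regions of this length and in 2 of the 14 of these genes. The CCAAT box was present in 37.4% and in 3, and the GC box in 35.7% and in 6. The loose AP-1 pattern was present in 7.81% and in 2. The 3 regions thus shared none of these motifs. Igf2 has 4 start regions in the table, none of them with a TATA box of these letters.

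Of the 28 probe sets 23 were retained, and these covered 9 of the 10 genes. Of the 23, 7 were lower in HF islets and none was higher, against a background of 3.06% of all retained probe sets that were lower and 0.644% that were higher. The lower probe sets belonged to 4 genes, which were Igfbp4 with 4 probe sets and Igfbp5, Igf1 and Igf2 with 1 each. With limma 1 member was higher at an unadjusted p under 0.05, a probe set of Igf2r, against 10.1% of all retained probe sets, and 13 were lower, against 10.8%. In 12 of the 23 all HF values lay below all NC values, against 7.84% of the retained probe sets, and in 1 all lay above, against 6.81%. The median log2 ratio was -0.36 over the 23 and 0.02 over all retained probe sets. Of the 23, a probe set of Igfbp4 and a probe set of Igf1 were retained through their NC values, with at most 1 HF value at or over 8.82, so that these counts are a description. In whole islets, fewer cells of a type and less RNA per cell cannot be told apart.

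**Figure D1:**
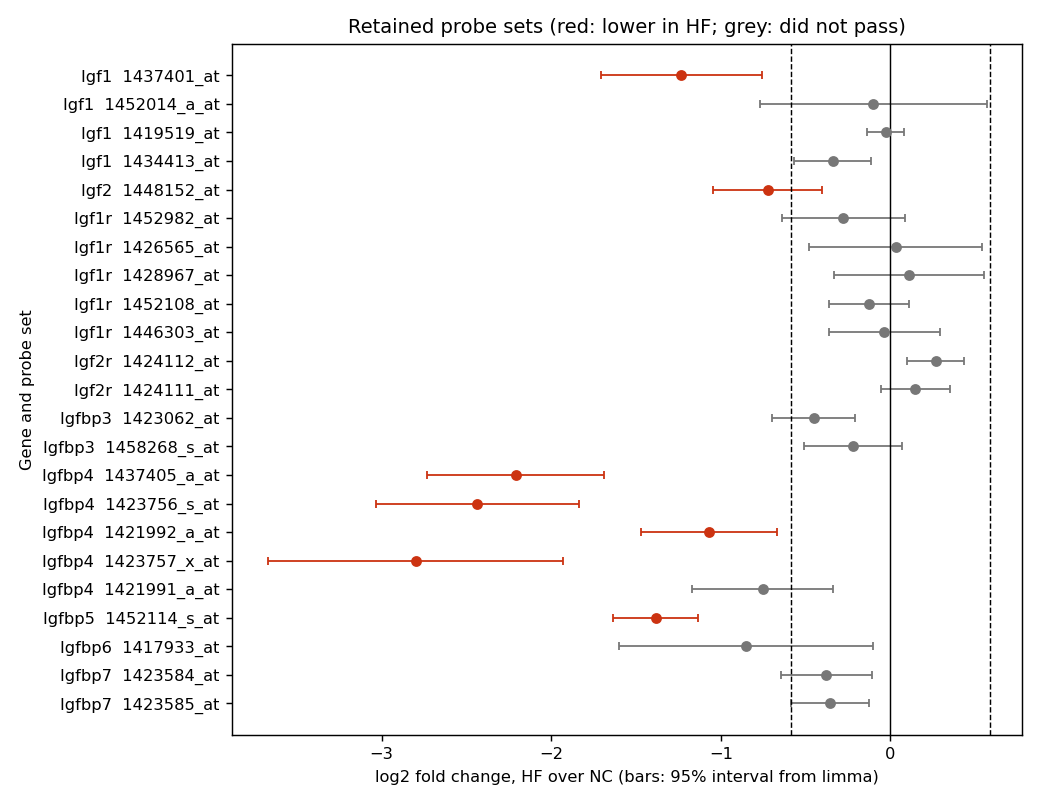
Log2 ratio of HF to NC (x axis) for each of the 23 retained probe sets (y axis), with 95% intervals from limma as bars and dashed lines at a fold change of 1.5. The 4 Igfbp4 probe sets in red lie between -2.80 and -1.07, and the 7 receptor probe sets lie within 0.28 of 0.

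Igfbp4, a binding protein that in most settings keeps the ligands from the receptor, had the largest change of the 10 genes. Its brightest probe set, 1437405_a_at, had intensities of 2152, 1505, 1569 and 1974 in NC replicates 1, 2, 4 and 5, and of 323, 400.0, 588 and 288 in HF replicates 21, 22, 23 and 24. Every HF sample lay far below every NC sample, and HF replicate 23 was the highest on that diet. The NC mean was 1800.2 ± 313 and the HF mean 400.1 ± 134 (SD, n = 4 each), and the log2 ratio of HF to NC was -2.21 (SE 0.23, limma adjusted p = 0.00204), which is 4.62-fold lower. The exact two-sided permutation p was 0.0286, the smallest that the 70 arrangements of the samples allow, as it was for each probe set below whose diets did not overlap.

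Each of the other retained Igfbp4 probe sets also had non-overlapping diets, but their size differed. Given in the same order of samples, 1423756_s_at had 921, 614, 611 and 883 in NC and 122, 140.0, 218 and 95.9 in HF, and the log2 ratio of HF to NC was -2.44 (SE 0.26, adjusted p = 0.00234). On 1421992_a_at the values were 384, 266, 272 and 336 in NC and 158, 114, 188 and 143 in HF, a smaller change of -1.07 (SE 0.17, adjusted p = 0.0119). HF replicate 23 was again the highest HF sample on both, and NC replicate 1 the highest NC sample. On 1423757_x_at the values were 90.0, 58.8, 51.6 and 62.3 in NC and 6.39, 6.87, 20.98 and 7.85 in HF, and the log2 ratio of HF to NC was -2.80 (SE 0.38, adjusted p = 0.00552). Of its HF values 3 lay under 8.82, and with values under that level raised to it the change was -2.55. The suffix x marks probe sets with probes that can bind other transcripts, and s those whose probes match several transcripts.

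The dim probe set 1421991_a_at of Igfbp4 narrowly missed the call, with 20.4, 19.2, 23.8 and 12.5 in NC and 10.5, 12.0, 10.7 and 10.7 in HF, and the log2 ratio of HF to NC was -0.75 (SE 0.18, adjusted p = 0.0502). It was called without NC replicate 5, the lowest NC sample (log2 fold change -0.94, adjusted p = 0.00492). The dimmest probe set, 1437406_x_at, was not retained. Its NC values were 14.1, 8.21, 10.6 and 7.94 and its HF values 4.06 to 4.35, so that all HF values and 2 NC values lay under 8.82. On the 5 retained probe sets of Igfbp4 the HF values lay below the NC values, and the 4 called ones ranged from -2.80 to -1.07.

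Igfbp5, a binding protein that also attaches to extracellular matrix, had the smallest adjusted p of the 10 genes. Probe set 1452114_s_at had 421, 297, 321 and 349 in NC and 129, 122, 136 and 141 in HF. The HF samples lay close together and well below the lowest NC sample. The means were 347 ± 53.6 and 132 ± 8.15 (SD, n = 4 each), and the log2 ratio of HF to NC was -1.38 (SE 0.11, adjusted p = 9.82e-04), or 2.61-fold lower. Igfbp2, the neighbour of Igfbp5 on chromosome 1 and a binding protein of fetal tissues and liver, was not measured above the level kept, with 5.90 to 6.05 in NC and 5.79 to 6.19 in HF on its only probe set. The other Igfbp5 probe set, 1422313_a_at, was not retained either, with 7.39 to 8.49 in NC and 7.14 to 7.89 in HF.

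Of the ligands, Igf1 was called lower on its brightest probe set only, and all 4 of its probe sets were dim. Igf1 is the growth factor that mediates much of the action of growth hormone. Probe set 1437401_at had 46.2, 27.8, 29.8 and 27.7 in NC and 16.2, 16.5, 10.7 and 12.1 in HF. The diets did not overlap, and NC replicate 1 stood above the other NC samples. The log2 ratio was -1.23 (SE 0.21, adjusted p = 0.0134), and -1.06 without NC replicate 1 (adjusted p = 0.0204). The call ended with a plain two-sample test in place of limma (adjusted p = 0.0539), and the stricter filter left this probe set out.

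The other Igf1 probe sets did not pass. On 1434413_at the values were 8.85, 10.4, 9.23 and 7.57 in NC and 7.23, 7.001, 6.58 and 7.50 in HF, so that all HF values lay under 8.82, with a log2 fold change of -0.34 (SE 0.10, adjusted p = 0.0870), or -0.077 with values under that level raised to it (adjusted p = 0.558). On 1452014_a_at they were 11.5 to 20.2 in NC and 11.2 to 26.4 in HF, and the log2 ratio of HF to NC was -0.10 (95% interval -0.77 to 0.57). On 1419519_at they were 13.3 to 14.3 in NC and 12.9 to 13.6 in HF, with -0.03 (95% interval -0.14 to 0.08). The probe sets of Igf1 thus disagreed in size.

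Igf2, the fetal growth factor and an imprinted gene, fell on its retained probe set 1448152_at, with 238, 215, 229 and 168 in NC and 134, 136, 140.0 and 103 in HF. The lowest NC sample, replicate 5, lay above the highest HF sample, replicate 23. The means were 212 ± 31.4 and 128 ± 17.1 (SD, n = 4 each), and the log2 ratio of HF to NC was -0.72 (SE 0.14, adjusted p = 0.0225), or 1.65-fold lower. Leaving out NC replicate 1, 2 or 4, or HF replicate 21, ended this call (adjusted p 0.0561 to 0.0637, log2 ratio -0.75 to -0.66), as did a plain two-sample test (adjusted p = 0.0708) and no filter (adjusted p = 0.0507). The other Igf2 probe set, 1415931_at, was not retained, with 8.08 to 8.68 in NC and 8.44 to 8.87 in HF. The next coding gene beside Igf2 is Ins2, an insulin gene, which had 67580.3 ± 432 in NC and 72718 ± 1199 in HF, and the log2 ratio of HF to NC was 0.11 (SE 0.04, adjusted p = 0.211).

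**Figure D2:**
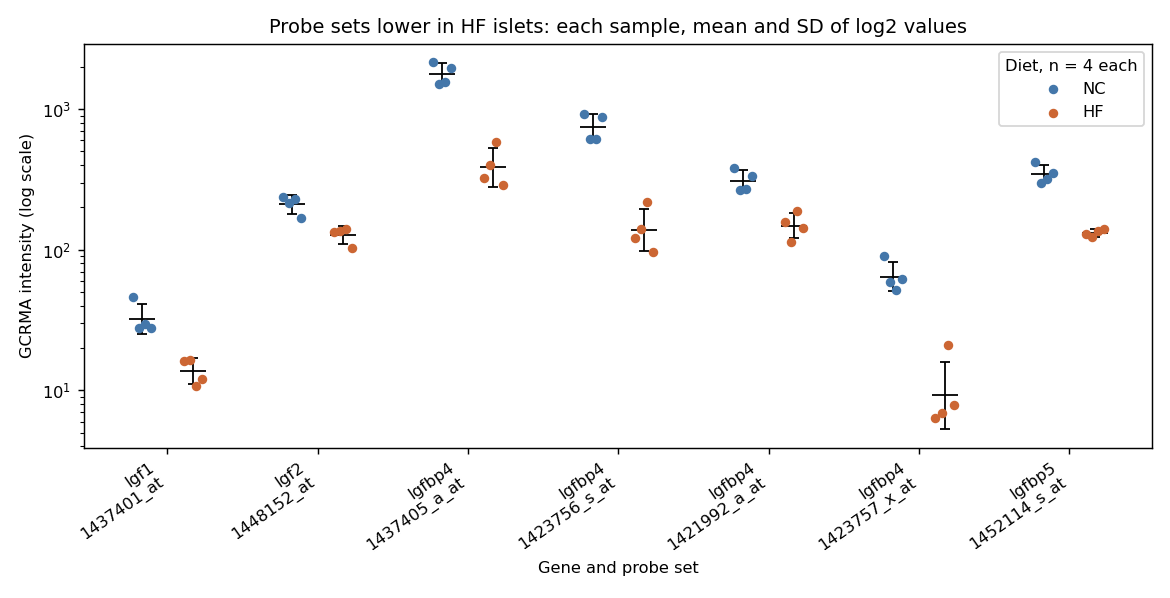
Intensities from GCRMA on a log axis for the 7 probe sets lower in HF islets, with 1 point for each NC or HF sample and black bars for the mean and SD on the log2 scale. The NC and HF samples do not overlap on any of them, and on 1423757_x_at of Igfbp4 HF replicate 23, at 20.98, stands above the other HF samples.

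Neither receptor passed the test. Igf1r was read by 5 probe sets, and none had an unadjusted p under 0.05 with limma or was called by any other test run. The brightest, 1452982_at, had 1368, 1206, 1399 and 1466 in NC and 1297, 798, 1297 and 1167 in HF, and the log2 ratio of HF to NC was -0.28 (95% interval -0.64 to 0.09, adjusted p = 0.377). The diets overlapped, and HF replicate 22 was the lowest of the 8 samples on it. Without that sample the log2 ratio was -0.11. On 1426565_at the intensities were 480 to 751 in NC and 444 to 874 in HF (log2 fold change 0.03, 95% interval -0.48 to 0.54), and on 1428967_at 338 to 570.5 in NC and 392 to 645 in HF (0.11, 95% interval -0.33 to 0.55). These intervals lie within a fold change of 1.5 on either side for each but the brightest probe set. The other 2 probe sets were dim, between 7.02 and 25.2 in all samples, with log2 fold changes of -0.13 and -0.04.

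Igf2r, the receptor that clears Igf2, had HF means above the NC means on both probe sets, but neither passed. Probe set 1424112_at had 1156, 984, 1047 and 1192 in NC and 1266, 1365, 1354 and 1271 in HF. All HF samples lay above all NC samples, by a small margin. The means were 1095 ± 96.2 and 1314 ± 52.9 (SD, n = 4 each), and the log2 ratio of HF to NC was 0.27 (SE 0.07, adjusted p = 0.0767), or 1.20-fold. Scaling on beta cell markers gave 0.16 (adjusted p = 0.286). On 1424111_at the values were 342 to 374 in NC and 361 to 467 in HF, with a log2 fold change of 0.15 (95% interval -0.06 to 0.35, adjusted p = 0.410). It was 0.061 without HF replicate 23, the highest sample, and 0.039 with the beta cell scaling.

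The brighter binding proteins Igfbp3 and Igfbp7 had HF means below the NC means, with smaller fold changes than Igfbp4 and Igfbp5, and were not called. Igfbp3, the main carrier of the ligands in blood, had 8379, 8357, 7397 and 8116 on 1423062_at in NC and 5811, 5895, 7073 and 4957 in HF. These diets did not overlap. The log2 fold change of -0.45 (SE 0.11, adjusted p = 0.0463) had a fold of 1.37, under the limit of 1.5, and this was the only member with an adjusted p under 0.05 that missed the fold limit. On 1458268_s_at the values were 2640 to 3278 in NC and 2322 to 3304 in HF (log2 fold change -0.22, adjusted p = 0.371), with HF replicate 23 the highest of all 8 samples, and the log2 ratio was -0.34 without it (adjusted p = 0.0683).

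Igfbp7, a related protein of vessel walls that binds the ligands weakly, had 10065, 9122, 8302 and 8791 on 1423584_at in NC and 7035, 6294, 8638 and 6135 in HF, and the log2 ratio of HF to NC was -0.38 (SE 0.12, adjusted p = 0.108). The diets overlapped through HF replicate 23. On 1423585_at they were 282 to 310.3 in NC and 208 to 281 in HF, which did not overlap (log2 fold change -0.36, SE 0.10, adjusted p = 0.0811). Without HF replicate 23 the adjusted p of 1423584_at was 0.0244 and the log2 ratio -0.48, under the fold limit. Its other probe set, 1437804_at, was not retained, at 1.78 to 1.81 in all samples.

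Igfbp6, a binding protein with a preference for Igf2, was dim and variable, with 27.5, 34.1, 27.1 and 51.3 in NC and 24.2, 20.6, 24.5 and 10.01 in HF. All HF values lay below the NC values. The log2 fold change of -0.85 (95% interval -1.60 to -0.11) did not pass (adjusted p = 0.184), and was -0.55 without HF replicate 24, the lowest sample. All 11 retained probe sets of the 5 binding proteins had a negative log2 fold change, where the median of all retained probe sets was 0.02. Of the 11, 5 were called, 4 of Igfbp4 and 1 of Igfbp5, against 3.06% of all retained probe sets that were lower. Probe sets of the same gene are not independent.

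**Figure D3:**
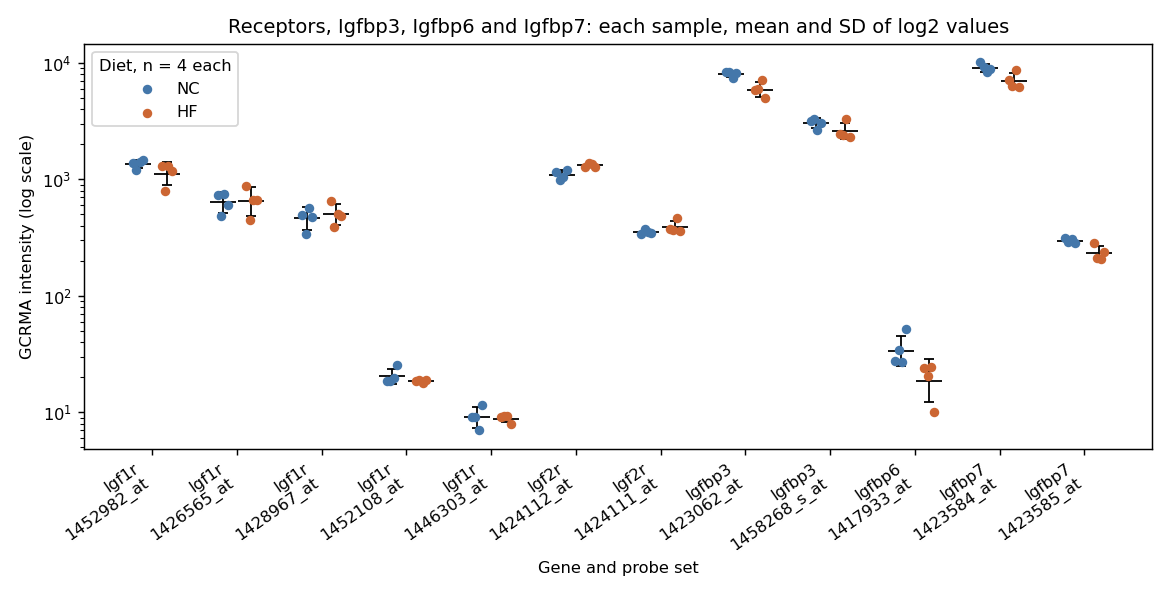
Intensities from GCRMA on a log axis for the retained probe sets of Igf1r, Igf2r, Igfbp3, Igfbp6 and Igfbp7, with 1 point for each NC or HF sample and black bars for the mean and SD on the log2 scale. None of the 12 probe sets was called, and HF lies above NC in all samples on 1424112_at of Igf2r alone.

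HF replicate 23 was the highest HF sample on 11 of the 23 retained probe sets, against 27.0% of all retained probe sets, and NC replicate 1 the highest NC sample on 11, against 34.7%. The members did not all share this order. On the brightest probe set of each gene and relative to the NC mean, HF replicate 23 was at -1.60 for Igfbp4, the highest HF sample, but at -1.58 for Igf1, the lowest. For Igfbp5 the 4 HF samples lay between -1.49 and -1.28.

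Some marker genes of non-endocrine cell types were also lower in HF islets than in NC islets. All 10 markers of fibroblasts and stellate cells, the cells that make connective tissue, were lower in HF islets, with log2 fold changes of -3.78 to -1.81 (median -2.43), against 4.28% of 12299 genes lower and 0.447% higher on their brightest retained probe set. Their summed intensity was 13401 to 19222 in the NC and 2654 to 4767 in the HF samples. Among them Col3a1, a fibrillar collagen, had 5198 ± 836 in NC and 1282 ± 388 in HF, Vim, an intermediate filament, had 4336 ± 438 and 1244 ± 233, and Dcn, the proteoglycan decorin, had 3517 ± 1067 and 677 ± 243 (SD, n = 4 each). Of 6 retained markers of smooth muscle and pericytes 4 were lower (median -0.96), with a summed intensity of 10761 to 11926 in NC and 7242 to 8563 in HF. Of 8 endothelial markers 2 were lower (median -0.55), with sums of 12115 to 13812 and 8498 to 10182. Of 5 retained markers of Schwann and glial cells 3 were lower (median -0.80, sums 1206 to 1377 and 427 to 561), and of 7 of macrophages 4 (median -0.77, sums 1974 to 2359 and 1029 to 1233). At an unadjusted p under 0.05 with limma, all 10 fibroblast and all 6 smooth muscle and pericyte markers were lower. So were 7 of 8 endothelial, all 5 Schwann and glial and 6 of 7 macrophage markers. None was higher, where 10.8% of all retained probe sets were lower and 10.1% higher at that p. The smooth muscle and pericyte sums came mostly from Rgs5, with means of 7859 in NC and 6470 in HF. The Schwann and glial sums came mostly from Pmp22, with means of 1049 in NC and 422 in HF. Of these lists, Cnn1, Cspg4, Gfap and Cd163 were under the level kept.

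Of the endocrine and exocrine lists none had a called gene, against 4.28% of all genes lower and 0.447% higher. At an unadjusted p under 0.05 with limma, 10.8% of all retained probe sets were lower and 10.1% higher. These shares are the background for the counts that follow. The 9 retained beta cell markers had a median log2 fold change of 0.11 (range -0.06 to 0.34) and a summed intensity of 256694 to 262939 in NC and 272034 to 286451 in HF, and 2 were higher at an unadjusted p under 0.05 with limma. The 4 alpha cell markers had a median of -0.39, with 2 lower at an unadjusted p under 0.05, and summed to 173559 to 176305 in NC and 169891 to 181612 in HF. The alpha sums came mostly from Gcg, with means of 83466 in NC and 83959 in HF, and Ttr, with 90606 and 90738. The 2 lower alpha markers were far dimmer and had log2 fold changes of -0.81 and -0.78. The 3 delta and PP cell markers had a median of -0.25, with 2 lower at an unadjusted p under 0.05, and summed to 92845 to 94366 in NC and 77615 to 89157 in HF. The 6 acinar markers had a median of -0.03, with 1 lower at that p (sums 172606 to 223499 and 188343 to 216558), and the 5 duct markers a median of -0.04, with 1 lower (sums 2992 to 3469 and 2854 to 3417). The duct sums came mostly from Krt7, with means of 3202 in NC and 3136 in HF. The lower duct marker was Krt19, with a log2 fold change of -1.77 (limma adjusted p = 0.0534) and all HF values under 8.82. What part these cell types had in the changes of the IGF genes was not tested.

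**Figure D4:**
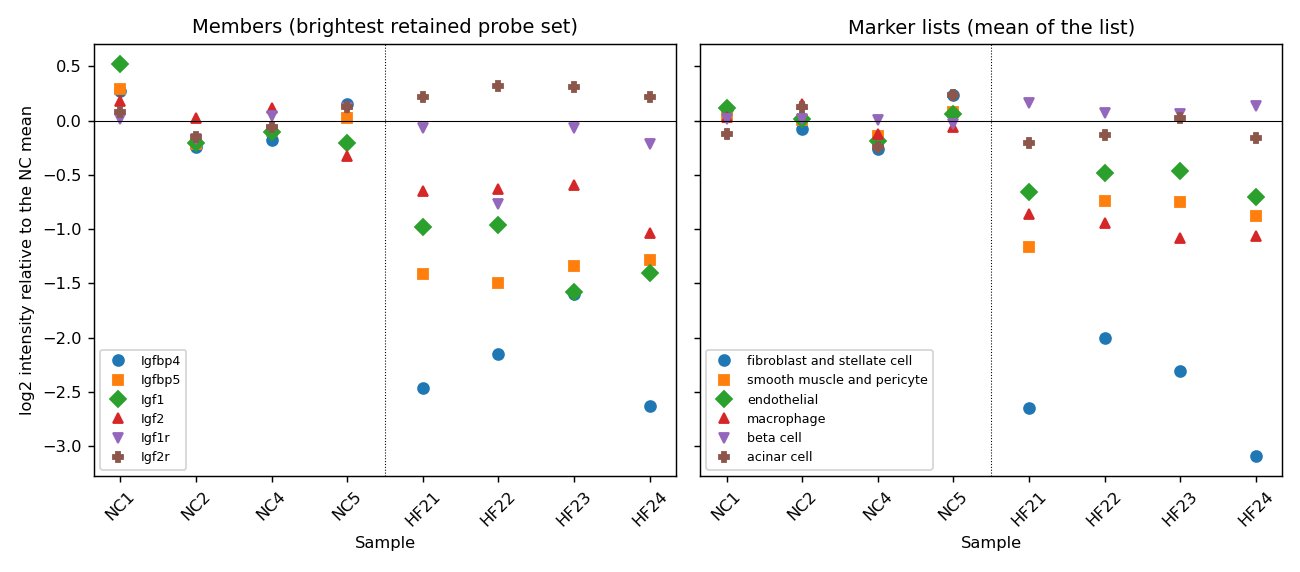
Log2 intensity of each sample relative to the NC mean (y axis) for 6 of the genes, on the brightest retained probe set of each (left), and for the mean of 6 marker lists (right), with 1 point per sample. Igfbp4 in HF lies between -2.63 and -1.60 and the fibroblast list between -3.09 and -2.00, whereas Igf2r lies between 0.21 and 0.32 and the beta cell list between 0.06 and 0.17.

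The genes whose profiles over the 8 samples were most alike were found for Igfbp4, Igfbp5 and Igf1 by the smallest root mean square difference of log2 values centred on the NC mean. For Igfbp4 they were Adcy7, an adenylyl cyclase (difference 0.18), Vcam1, an adhesion molecule of vessels and stroma (0.19), and Hsd11b1, an enzyme that regenerates active glucocorticoid (0.20). For Igfbp5 they were Flna, an actin crosslinker (0.14), Pmp22, a myelin protein that is also on the Schwann cell list (0.14), and Cavin2, a coat protein of caveolae (0.15). For Igf1 they were Higd1a, a mitochondrial protein (0.20), Mmp14, a membrane-bound matrix protease (0.20), and Filip1l (0.21). All 9 were lower in HF islets, with log2 fold changes of -2.34 to -1.03. The measure takes in the difference between diets, so that these are genes with a fall of like size.

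The rest of the pathway was covered by 20 other genes, of which 14 were retained. Of the 14, 2 were lower and none higher, against the 4.28% of all genes that were lower and 0.447% that were higher, and 12 did not pass the test. No gene of the 14 was higher at an unadjusted p under 0.05 with limma, against 10.1% of all retained probe sets. At that p, 2 of 5 genes of ligand availability and 3 of 8 of receptor-proximal signalling were lower, against 10.8%. The 1 retained gene of the third list was not. Htra1, a secreted protease that cuts Igfbp5 among other proteins, had 116, 98.5, 122 and 132 in NC and 22.3, 38.7, 45.9 and 29.5 in HF. The diets lay far apart. Its log2 ratio was -1.82 (SE 0.22, adjusted p = 0.00347), and its other probe set had a log2 ratio of -2.40 (adjusted p = 9.82e-04). Socs2, an inhibitor of growth hormone signalling, had 1549, 1879, 1307 and 1616 in NC and 831, 640.3, 1132 and 859 in HF on its brightest probe set, and the log2 ratio of HF to NC was -0.89 (SE 0.18, adjusted p = 0.0253). The call ended without any one of NC replicates 1, 2 and 5 and HF replicates 21 and 24 (adjusted p 0.0619 to 0.0736), with no filter (adjusted p = 0.0586) and with a plain two-sample test (adjusted p = 0.0786), and the other 3 Socs2 probe sets did not pass.

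Of the genes that control the release of the ligands, Pappa2, a protease that cuts Igfbp5 and Igfbp3, had an NC mean of 6774 ± 497 and an HF mean of 7600.5 ± 1216 (log2 fold change 0.15, 95% interval -0.12 to 0.43), and Pappa, which cuts Igfbp4, was dim with a log2 fold change of -0.04 (95% interval -0.33 to 0.25). Stc1, a stanniocalcin that inhibits such proteases, had a log2 fold change of -0.63 (adjusted p = 0.0637), with non-overlapping diets. Igfals, the partner of Igfbp3 in the circulating complex, had 0.08 (95% interval -0.28 to 0.45). Igfbp1, Igfbpl1 and Stc2 were under the level kept. Of the genes next to the receptors, Insr had a log2 fold change of 0.06, Insrr of 0.06, Irs1 of 0.19 and Irs2 of -0.37. Grb10, an adaptor that restrains Igf1r and the insulin receptor, had -0.55 (limma adjusted p = 0.0750). The dimmer Grb10 probe sets had 0.20 and -0.07. Grb14 had -0.01 and Shc1 0.04, and none of these genes passed. Of the genes of proteins that bind Igf2 RNA, Igf2bp1 had 0.02, Igf2bp3 was under the level kept, and Igf2bp2 was not analysed here. H19, the imprinted neighbour of Igf2, was not analysed either.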

How the data were processed

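Islet RNA of 4 NC and 4 HF samples was hybridised to Affymetrix MOE 430v2 arrays, 1 per sample. Each probe set was summarised by the authors with GCRMA in ArrayAssist Lite, and the deposited values are intensities on the linear scale, as the values show, which were taken to log2 here with no further normalization. GCRMA pulls dim probe sets toward a common low level, so that their changes can be understated. Gene names are those of the GEO platform annotation, and start regions are RefSeq's. The study used SAM on probe sets flagged present, and neither SAM nor the flags were used here. As many probe sets as the study tested (56.8% of the array) were instead kept by third-highest intensity, and diets were compared with limma 3.58.1 in R 4.3.3 (lmFit, eBayes), with Benjamini-Hochberg adjustment over all of them. The diets were also compared on each probe set described with an exact permutation test of the difference in mean log2 value. The genes described, the marker lists and the tests were chosen with earlier results of these data known. The text names all 10 IGF genes, every retained gene of 3 lists of other IGF-system genes, up to 3 markers of a list by mean intensity, and the 3 most alike genes of the 3 members with the largest changes. Other genes were read on their brightest retained probe set. Airn was named beside the rule. The labels give no batch. The alternatives were other filters, scalings, variance models and tests, no fold limit, raising low values, and leaving out each sample.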

Additional observations from a re-analysis of the deposited data

Results flagged for a closer look

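In some groups of 4 samples 1 sample stood apart, its gap to the nearest other sample, as a share of the range of the log2 values, being above Dixon's 95% critical value for 4 samples. This held for 9 of the 56 groups checked, where about 1 in 20, or 2.8, would be flagged if the groups were independent and normally distributed. They are not independent, since they come from the same arrays and several probe sets read the same gene. The counts are therefore a description. For Igf1, NC replicate 1 was high on 1437401_at at 46.2, with the other NC samples at 27.7 to 29.8, and on 1419519_at at 14.3, with the others at 13.3 to 13.4. HF replicate 23 was high on 1452014_a_at of Igf1 at 26.4 (others 11.2 to 12.7), on 1424111_at of Igf2r at 467 (others 361 to 375) and on 1458268_s_at of Igfbp3 at 3304 (others 2322 to 2437). HF replicate 24 was low on 1448152_at of Igf2 at 103 (others 134 to 140.0) and on 1446303_at of Igf1r at 7.88 (others 9.03 to 9.25). On the probe set 1422313_a_at of Igfbp5, which was not retained, NC replicate 2 was high at 8.49 (others 7.39 to 7.43) and HF replicate 24 at 7.89 (others 7.14 to 7.22).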

How the results depend on the processing

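The count of lower probe sets among the IGF genes was 7 (3.06% of all retained probe sets were lower), and 5 to 8 under the alternatives: 5 of the 14 tested with the stricter filter (3.29% of all), 5 with a plain two-sample test after adjustment (1.76%), 7 of the 28 tested with no filter (1.27%), 6 of which were among the original 7, 8 with scaling on beta cell markers (4.43%), and 6 to 8 without 1 sample (2.12% to 2.96%). No probe set of these genes was higher under any of them. The calls of Igfbp5 and of the 4 Igfbp4 probe sets held in each alternative that tested them. The call of Igf1 on 1437401_at ended with the plain two-sample test (adjusted p = 0.0539), and that of Igf2 with the same test (adjusted p = 0.0708), with no filter (adjusted p = 0.0507) and without NC replicate 1, 2 or 4 or HF replicate 21. The dim Igfbp4 probe set 1421991_a_at was called in 5 alternatives (log2 fold change -0.94 to -0.75). The beta cell scaling moved the median of all probe sets from 0.02 to -0.09. Signs turned only for probe sets that were not called: with the same scaling 1426565_at of Igf1r was at -0.076, and without 1 sample it ranged from -0.11 to 0.21, 1428967_at from -0.038 to 0.23, 1446303_at from -0.16 to 0.081, and 1452014_a_at of Igf1 from -0.39 to 0.024. The cause was not tested. Values near 8.82 are close to background, which limits what the dim probe sets of Igf1, Igf1r and Igfbp6 can show. No paired analysis was possible because the diets share no replicate numbers.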
